A study of Mus musculus with 6 samples.

Results

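Forkhead (Fox) genes encode transcription factors that share a winged-helix DNA-binding domain and are sorted into lettered subfamilies. All genes of the array whose symbol is Fox, a letter between a and s and a number were taken, with 1 exception that is not reported here, and each gene was represented by its probe set with the highest mean signal. This gave 42 forkhead genes among 19938 measured genes. The genes were measured in B-lineage cells of Em-Myc (Eµ-Myc) mice, in which the immunoglobulin heavy chain enhancer drives a Myc transgene and B cell lymphomas arise. The 6 arrays formed 3 groups of 2, and every sample carried the Myc transgene. One group held lymphomas generated with the hairpin shEzh2.781, which targets Ezh2, the catalytic subunit of polycomb repressive complex 2 and writer of histone H3 lysine 27 methylation. The second group held lymphomas generated with another Ezh2 hairpin, shEzh2.556. The third group held splenic B cells of premalignant mice that were given no hairpin, from 2 separate preparations. The labels call the third group both premalignant Em-Myc cells and normal control cells, and the titles' description is used here. The sources used here do not give strain, age or sex.

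Beads against CD43 were used to purify the lymphoma cells, to a stated minimum of 95% carrying both B220 and GFP, whereas the premalignant cells were described as sorted. Lymphomas free of Ezh2 hairpins were not analysed here, so malignant state, hairpin and cell preparation cannot be told apart in any comparison with premalignant cells. The labels leave unsaid whether the lymphomas of one hairpin grew in different mice. P-values therefore set each difference only against the spread of these samples within their groups, which may be technical. Ezh2 signal was 10.92 and 11.07 in shEzh2.781 lymphomas and 11.20 and 11.30 in shEzh2.556 lymphomas, against 12.64 and 12.70 in premalignant cells (log2). All 9 measured B cell markers were above background on every array. In lymphomas 4 of them were lower (Pax5, Ebf1, Blnk and Cd72), where 9.61% of all genes were, and 1 was higher (Cd22), where 5.6% were. Ebf1 was not called lower in shEzh2.781 lymphomas alone, nor Blnk in shEzh2.556 lymphomas alone. Cd72 differed by -0.48 in shEzh2.781 lymphomas and by -2.02 in shEzh2.556 lymphomas (log2). Of 10 measured T cell markers, Cd4, Cd8a and Lat were lower with both hairpins, against 6.24% of all genes in shEzh2.781 lymphomas and 11.4% in shEzh2.556 lymphomas. The others, including Cd3d, Cd3e and Cd3g, were called neither lower nor higher. Over both hairpins the median difference of this list was -0.15 (log2). Over both hairpins all 10 neutrophil markers were lower in lymphomas, where 9.61% of all genes were, but 7 in shEzh2.781 lymphomas alone, against 6.24%. Their mean signal was 7.93 to 8.59 in shEzh2.781 lymphomas, 6.17 to 6.79 in shEzh2.556 lymphomas and 9.15 to 9.44 in premalignant cells. Of 6 measured erythroid markers, 4 were lower over both hairpins, where 9.61% of all genes were. In shEzh2.781 lymphomas 5 were lower, against 6.24% of all genes, and in shEzh2.556 lymphomas 0, against 11.4%. The erythroid mean signal was 6.41 to 6.91 in shEzh2.781 lymphomas, 7.60 to 8.02 in shEzh2.556 lymphomas and 7.90 to 8.21 in premalignant cells.

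As background, forkhead factors work in nearly every lineage. FOXO proteins are held in the cytoplasm by PI3K and AKT signalling and, when free to enter the nucleus, drive cell cycle exit, stress resistance and, in B cell precursors, the recombination genes. FOXM1 drives mitotic genes, FOXP1 is needed for B cell development in mice, and FOXP3 defines regulatory T cells. Members such as FOXA, FOXC, FOXD and FOXF pattern endoderm, neural crest and mesenchyme, and several of them are held silent by polycomb in cells that do not use them.

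The result that stood out within the family was Foxf2, whose product directs the mesenchyme of the gut, palate and blood vessels. It lies on chromosome 13 between Foxq1, known from hair shaft and epithelial differentiation, and Foxc1, known from the eye, the skull and the bone marrow niche. The windows of 250 bases before to 50 bases after the annotated starts of Foxf2 and its neighbour Foxc1 are shown because one gene rose and the other stayed at background. They come from RefSeq (GRCm38.p6), at chr13:31625566-31625865 for Foxf2 and chr13:31806396-31806695 for Foxc1, both on the plus strand, with each CpG in capitals.
Foxf2: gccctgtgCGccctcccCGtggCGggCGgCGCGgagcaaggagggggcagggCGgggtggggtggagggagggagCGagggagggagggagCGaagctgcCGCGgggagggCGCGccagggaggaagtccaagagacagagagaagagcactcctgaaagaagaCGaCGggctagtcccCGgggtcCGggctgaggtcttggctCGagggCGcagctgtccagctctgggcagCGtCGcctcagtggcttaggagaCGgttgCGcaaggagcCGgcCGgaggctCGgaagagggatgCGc
Foxc1: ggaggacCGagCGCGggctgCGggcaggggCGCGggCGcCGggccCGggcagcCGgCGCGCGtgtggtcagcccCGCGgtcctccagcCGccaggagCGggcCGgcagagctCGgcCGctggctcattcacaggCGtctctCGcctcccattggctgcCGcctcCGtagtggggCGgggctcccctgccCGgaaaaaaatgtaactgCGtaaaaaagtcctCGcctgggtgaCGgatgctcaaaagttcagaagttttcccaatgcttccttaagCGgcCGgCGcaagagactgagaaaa
The Foxf2 window held 27 CpGs and the Foxc1 window 32. Of all 32851 RefSeq promoter windows, 15.5% held at least as many CpGs as that of Foxf2. Windows were found for 27 of the 42 forkhead genes, 32 windows in all, with a median of 19 CpGs against 7 over all windows. Foxm1 and Foxq1 were among the genes without a window and were not searched. Neither printed window contained the E-box CACGTG, the forkhead site TGTTTAC or the cell cycle element TTTGAA on either strand. CACGTG was found in 1 forkhead window, that of Foxd3, and in 7.15% of all windows. TGTTTAC was found in that of Foxa1 and in 3.65% of all windows. TTTGAA was found in windows of Foxn3, Foxp1 and Foxp3 and in 17.9% of all windows. Foxp1 and Foxp3 also had windows without it. These are matches of letters only.

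The array file has no detection call, so background was set on each array as the 95th percentile of 1194 olfactory and vomeronasal receptor genes, which have no known use in B cells. It lay between 6.18 and 6.52 (log2). Of the 42 forkhead genes, 26 were above background on all 6 arrays, 3 on some arrays and 13 on none, where 60.1%, 9.21% and 30.7% of all genes fell into these classes. The genes above background on all arrays spanned 6.32 to 11.77, and those above it on none spanned 5.29 to 6.49. The class is sensitive to where background is set: at the 99th percentile of receptor genes, 17 forkhead genes were above it on all arrays, 4 on some and 21 on none. These 17 were Foxb2, Foxd2, Foxe1, Foxe3, Foxi2, Foxj2, Foxj3, Foxk1, Foxk2, Foxl2, Foxm1, Foxn2, Foxn3, Foxo3, Foxo4, Foxp1 and Foxp4. Nearest to the lower limit, Foxf1 was above background by 0.12 on its lowest array, and Foxi1 missed background on its lowest array only narrowly. Among the genes above background on no array, Foxn1 came nearest to it.

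**Figure D1:**
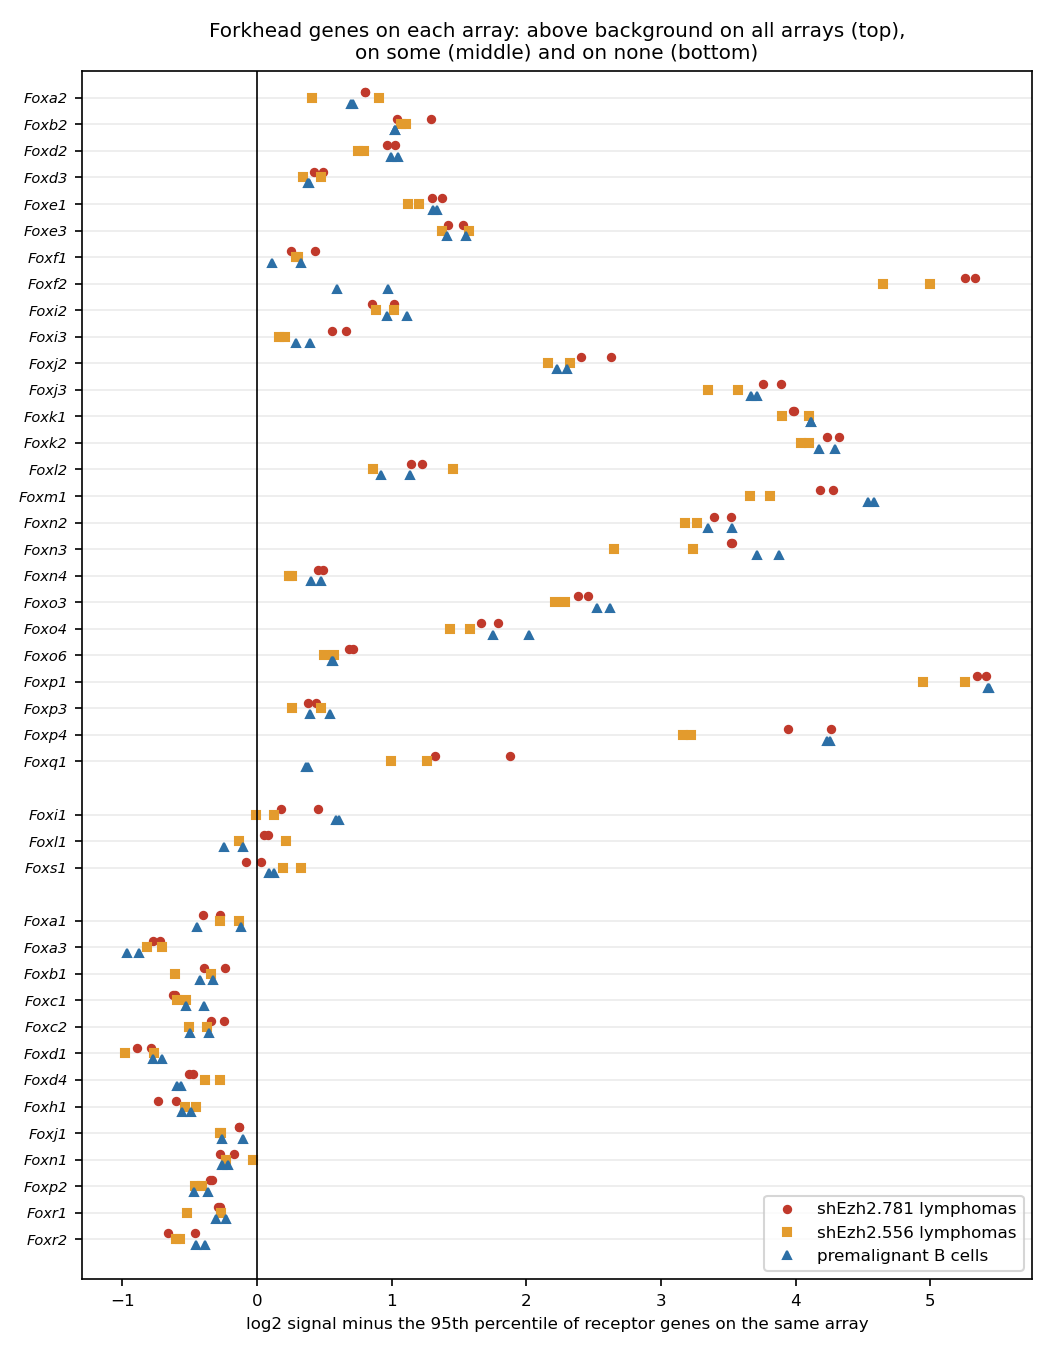
Log2 signal of each forkhead gene minus the receptor-gene background (95th percentile) of the same array, 1 symbol per array (circles for shEzh2.781 lymphomas, squares for shEzh2.556 lymphomas, triangles for premalignant cells) and 1 row per gene, in 3 classes: above background on all arrays, on some and on none. Foxf2 reached 5.33 above background in lymphomas and was 0.60 above it on its lowest array, a premalignant one.

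In lymphomas against premalignant cells, 2 of the 42 forkhead genes were higher (Foxf2 and Foxq1), where 5.6% of all genes were higher, and 3 were lower (Foxm1, Foxn3 and Foxp4), where 9.61% of all genes were lower (limma, adjusted p under 0.05). As a family the forkhead genes changed about as often as other genes: 11.9% of them were called in either direction, against 15.2% of all genes. Their median difference was 0.04, against 0.03 (log2) over all genes. In shEzh2.781 lymphomas 2 were higher, against 4.6% of all genes, and 1 was lower, against 6.24%, which makes 7.14% of the family and 10.8% of all genes in either direction. In shEzh2.556 lymphomas 4 were higher, against 6.8% of all genes, and 3 were lower, against 11.4%, which makes 16.7% of the family and 18.2% of all genes. Both comparisons use the same premalignant arrays. All 4 lymphoma arrays lay above both premalignant arrays for 6 forkhead genes (Foxa3, Foxf2, Foxi3, Foxj2, Foxl1 and Foxq1), where 12.7% of all genes did. They lay below both for 4 (Foxi1, Foxm1, Foxn3 and Foxo4), where 16.1% of all genes did.

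**Figure D2:**
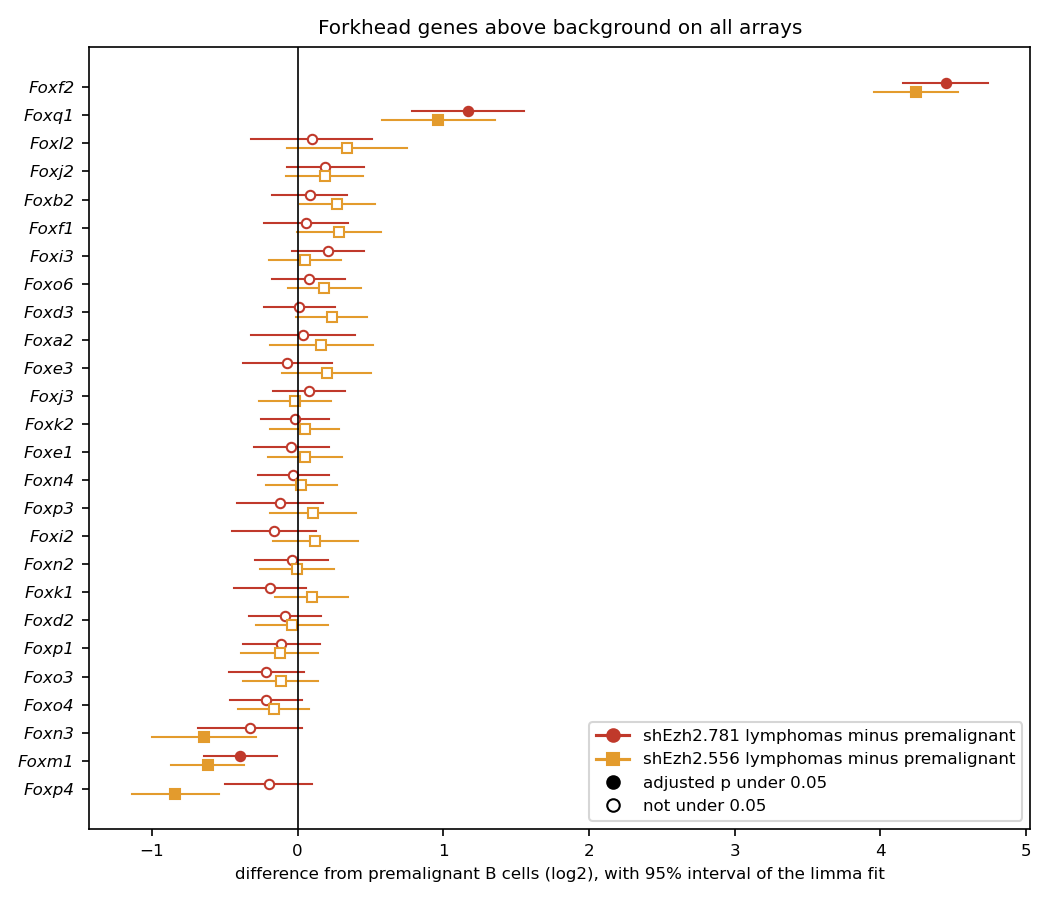
Log2 difference from premalignant B cells of the 26 forkhead genes above background on all arrays, for shEzh2.781 lymphomas (circles) and shEzh2.556 lymphomas (squares), with lines for the 95% interval of the limma fit and filled symbols for called genes. Foxf2 stands at 4.45 in shEzh2.781 lymphomas and 4.25 in shEzh2.556 lymphomas, Foxq1 at 1.17 and 0.97, and Foxm1, Foxn3 and Foxp4 lie below 0 with both hairpins.

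Foxf2 signal was 11.50 and 11.51 in shEzh2.781 lymphomas and 11.16 and 11.44 in shEzh2.556 lymphomas, against 7.18 and 6.94 in premalignant cells (log2). Every lymphoma array was thus far above both premalignant arrays, which were themselves close to background, 1 of them above and 1 below the 99th percentile of receptor genes. The difference between lymphomas and premalignant cells was 4.35 ± 0.11 (log2, SE), or 20.3-fold with a 95% interval of 17.1 to 24.2 (limma adjusted p = 8.96e-10). It was 4.45 in shEzh2.781 lymphomas (adjusted p = 4.75e-09) and 4.25 in shEzh2.556 lymphomas (adjusted p = 3.13e-09). The hairpin groups differed by 0.20, with an interval of -0.09 to 0.49 (adjusted p = 0.303). In bulk RNA, a larger number of cells carrying a transcript and more transcript per cell cannot be told apart.

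Foxq1 signal was 8.13 and 7.50 in shEzh2.781 lymphomas and 7.51 and 7.71 in shEzh2.556 lymphomas, against 6.58 and 6.70 in premalignant cells (log2). The lymphoma arrays again lay above both premalignant arrays, by much less than for Foxf2. Both premalignant arrays were above the 95th percentile of receptor genes but below the 99th, so the fold change is taken against signals close to background. The difference was 1.07 ± 0.15 (log2, SE), or 2.10-fold with a 95% interval of 1.67 to 2.64 (limma adjusted p = 0.000499). It was 1.17 in shEzh2.781 lymphomas (adjusted p = 0.00111) and 0.97 in shEzh2.556 lymphomas (adjusted p = 0.00259).

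Foxc1, on the other side of Foxf2, was below background on every array, with 5.64 and 5.55 in shEzh2.781 lymphomas and 5.99 and 5.85 in shEzh2.556 lymphomas, against 5.81 and 5.81 in premalignant cells (log2). Its difference was -0.05, with an interval of -0.26 to 0.16 (limma adjusted p = 0.799). Along the chromosome the genes run in the order Exoc2, Hus1b, Foxq1, Foxf2, Foxc1, Gmds and Mylk4. Exoc2, which encodes an exocyst subunit, differed by -0.01, Hus1b by 0.05 and Mylk4 by -0.00, and none of these was called. Gmds, which encodes an enzyme of GDP-fucose synthesis, had a signal of 8.94 and 9.04 in shEzh2.781 lymphomas and 9.04 and 8.96 in shEzh2.556 lymphomas, against 8.81 and 8.48 in premalignant cells. Its difference of 0.35 ± 0.11 (SE) was not called (adjusted p = 0.0595). The calls in this stretch were those of the adjacent genes Foxq1 and Foxf2.

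**Figure D3:**
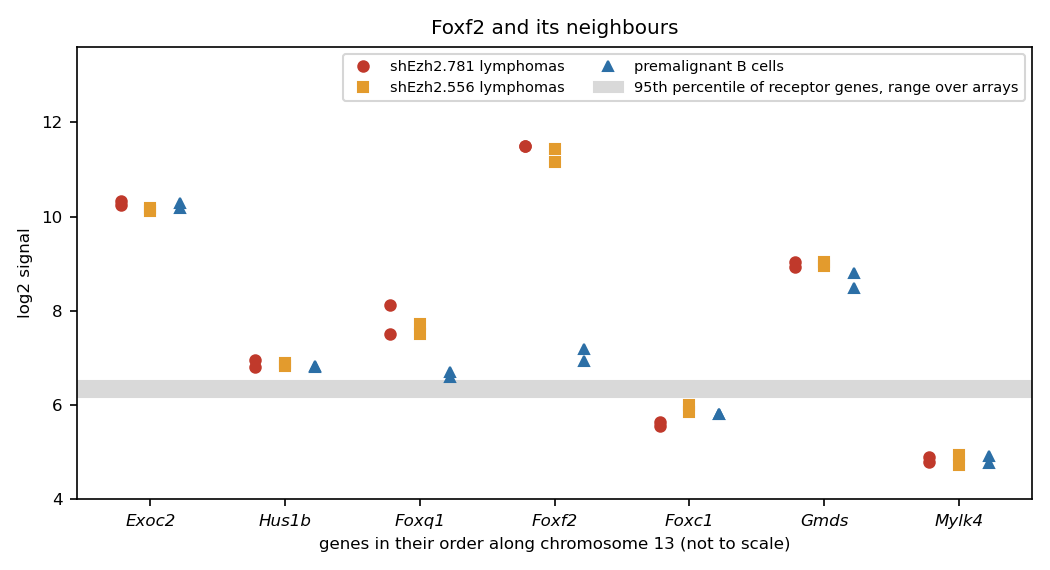
Log2 signal on each of the 6 arrays for the genes around Foxf2 on chromosome 13, in their order along the chromosome and not to scale, with shEzh2.781 lymphomas as circles, shEzh2.556 lymphomas as squares, premalignant cells as triangles and a grey band for the receptor background of the arrays. Foxq1 and Foxf2 separate the groups, whereas Foxc1 stays between 5.55 and 5.99 on all arrays. Signals of different genes come from different probes and are not set against each other.

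Stromal and epithelial markers, from the tissues in which FOXF2 and FOXQ1 are best known, were set beside these rises. The 12 stromal markers had an array mean of 6.21 to 6.42 in shEzh2.781 lymphomas and 6.59 to 6.69 in shEzh2.556 lymphomas, against 6.40 to 6.64 in premalignant cells. Col1a1 and Col1a2 were lower in lymphomas. Acta2, a smooth muscle actin gene, was higher in shEzh2.556 lymphomas by 1.35 (limma adjusted p = 0.000101) and differed by -0.01 in shEzh2.781 lymphomas (adjusted p = 0.974). Pdgfra, Lum, Postn and Tagln were above background on no array. The 10 epithelial markers had an array mean of 6.39 to 6.43 in shEzh2.781 lymphomas and 6.60 to 6.75 in shEzh2.556 lymphomas, against 6.31 to 6.53 in premalignant cells. Among them Krt18, a keratin gene, had 8.14 and 8.17 in shEzh2.781 lymphomas and 8.27 and 8.01 in shEzh2.556 lymphomas, against 7.24 and 7.28 in premalignant cells, and was higher by 0.89 (limma adjusted p = 0.000117), the same direction as Foxq1. Cdh1 was lower. Of 10 macrophage and monocyte markers, 3 were higher in lymphomas (Csf1r, C1qb and C1qc), where 5.6% of all genes were, and 0 were lower. These 3 were also higher in shEzh2.556 lymphomas, where Lyz2 was lower. In shEzh2.781 lymphomas 0 of that list were higher and Cd68 was lower. Of 10 endothelial markers, Egfl7 was higher with both hairpins, and over both hairpins Emcn, above background on no array, was lower. The rest of that list differed by hairpin. In shEzh2.556 lymphomas 3 were higher (Eng, Cldn5 and Egfl7), against 6.8% of all genes, and 0 were lower. In shEzh2.781 lymphomas 3 were lower (Cdh5, Eng and Emcn), against 6.24% of all genes. The part of these markers in the rises of Foxf2 and Foxq1 was not tested. Epcam, Krt19, Krt5, Krt14, Cldn7 and Esrp1 were above background on no array. Measured genes of hedgehog signalling and of the mesenchymal programme around FOXF factors numbered 17, with a median of 0.06. Of these, 1 was higher in lymphomas, where 5.6% of all genes were. That gene, Bmp4, a secreted growth factor, had a signal of 9.58 and 7.44 in shEzh2.781 lymphomas and 8.02 and 7.74 in shEzh2.556 lymphomas, against 6.54 and 6.74 in premalignant cells. All lymphoma arrays were higher, with a wide spread between the shEzh2.781 arrays, and the difference was 1.55 ± 0.40 (log2, SE, limma adjusted p = 0.0212). The call was lost without shEzh2.556 replicate 1 (adjusted p = 0.0725), premalignant replicate 1 (0.193) or premalignant replicate 2 (0.129).

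Foxm1, the driver of G2 and mitosis genes, fell in lymphomas. Its signal was 10.52 and 10.36 in shEzh2.781 lymphomas and 10.17 and 10.26 in shEzh2.556 lymphomas, against 10.79 and 10.88 in premalignant cells (log2). The groups did not overlap, and the difference was -0.51 ± 0.10 (log2, SE, limma adjusted p = 0.00442), with an interval of -0.72 to -0.29. It was -0.39 in shEzh2.781 lymphomas (adjusted p = 0.0498) and -0.62 in shEzh2.556 lymphomas (adjusted p = 0.003), and the hairpins differed by 0.22 with an interval of -0.03 to 0.48. Without premalignant replicate 2 the call against premalignant cells was lost (adjusted p = 0.055). The shEzh2.781 call was lost when any 1 of the 6 arrays was left out (adjusted p 0.0634 to 0.368) and with replicate numbers as a block (0.0748).

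Genes that FOXM1 is known to activate fell with it. Of 29 measured targets, 20 were lower in lymphomas, where 9.61% of all genes were, the others were not called, and the median difference was -0.46, against 0.03 over all genes. In shEzh2.781 lymphomas 10 were lower, against 6.24% of all genes, and in shEzh2.556 lymphomas 19, against 11.4%. Cdc25b, the phosphatase that helps start mitosis, had a signal of 10.56 and 10.35 in shEzh2.781 lymphomas and 10.27 and 10.18 in shEzh2.556 lymphomas, against 11.90 and 11.82 in premalignant cells. Its difference was the largest of the list, -1.52 ± 0.10 (SE, limma adjusted p = 1.87e-06). The kinetochore genes Cenpf and Cenpe differed by -0.87 and -0.62, the centrosomal kinase gene Nek2 by -0.65, Cdc25c by -0.60 and the spindle gene Ckap2l by -0.55, all called. The count depended on single arrays: 13 targets were lower without shEzh2.556 replicate 1, and 12 without premalignant replicate 1 or premalignant replicate 2. Of 15 measured partners and regulators of FOXM1, 2 were lower, where 9.61% of all genes were, and the others were not called. The median of this list was -0.22. Mastl, the Greatwall kinase, differed by -0.78 (adjusted p = 0.00229, but 0.0555 without premalignant replicate 1). Fzr1, which encodes the CDH1 activator of the anaphase-promoting complex, differed by -0.43 (adjusted p = 0.019). The Fzr1 call was lost without shEzh2.781 replicate 2 (0.0544), shEzh2.556 replicate 2 (0.053), premalignant replicate 1 (0.0517) or premalignant replicate 2 (0.152).

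Over both hairpins, the neutrophil, erythroid, T cell and B cell markers given above as lower moved the same way as Foxm1, Foxn3 and Foxp4. The other T cell markers, including the CD3 genes, were not called, and the B cell marker Cd22 was higher. In shEzh2.556 lymphomas, where Foxn3 and Foxp4 were called, 0 of the 6 erythroid markers were called (median -0.23). In shEzh2.781 lymphomas, where Foxn3 and Foxp4 were not called, 5 were lower (median -1.52). The neutrophil markers had the opposite order by hairpin. All 10 were lower in shEzh2.556 lymphomas (median -3.02) and 7 in shEzh2.781 lymphomas (median -1.08). The part of these markers in the falls of Foxm1, its targets, Foxn3 and Foxp4 was not tested. Myc itself differed by 0.14 and was not called (adjusted p = 0.402).

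**Figure D4:**
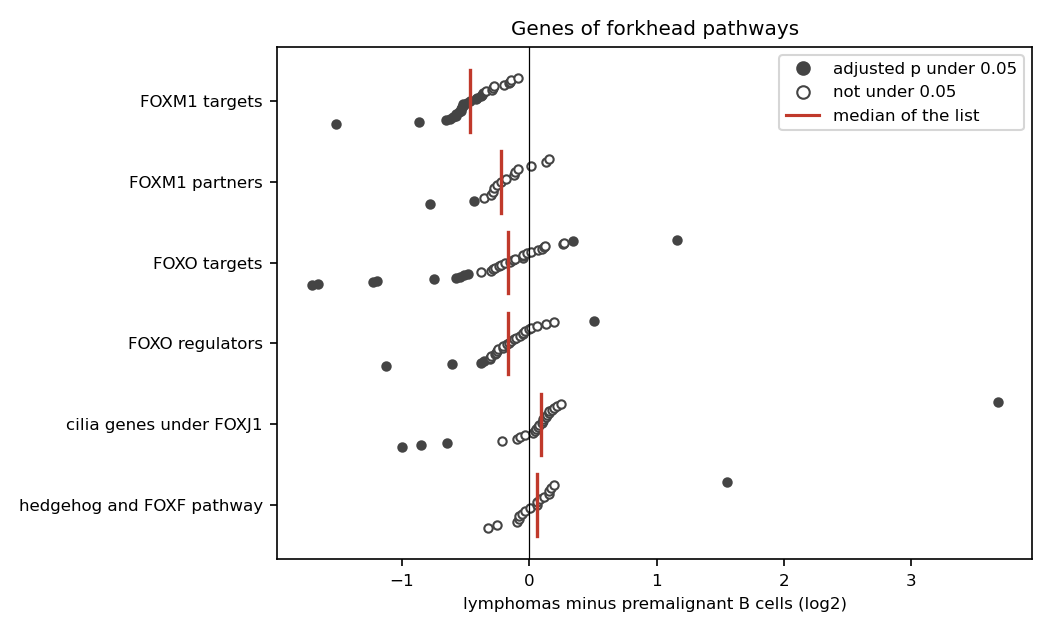
Log2 difference, lymphomas minus premalignant B cells, of every measured gene in 6 lists of forkhead targets, partners and regulators, 1 row per list and 1 point per gene, with filled points for called genes and a vertical line at the list's median. The FOXM1 targets have the lowest median, -0.46, while the hedgehog and FOXF row has a median of 0.06.

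Among the FOXP genes, Foxp4 differed between hairpins and Foxp1 was not called. Foxp1 signal was 11.60 and 11.59 in shEzh2.781 lymphomas and 11.46 and 11.70 in shEzh2.556 lymphomas, against 11.64 and 11.77 in premalignant cells (log2). The groups overlapped, and the difference was -0.12 with an interval of -0.35 to 0.11 (limma adjusted p = 0.541). Foxp4, a close relative that acts in lung and gut development, had 10.51 and 10.12 in shEzh2.781 lymphomas and 9.68 and 9.67 in shEzh2.556 lymphomas, against 10.46 and 10.57 in premalignant cells. Its shEzh2.556 arrays were below all others, while 1 shEzh2.781 array lay between the premalignant arrays. Over both hairpins it fell by 0.52 (SE 0.12, adjusted p = 0.0106), a call that was lost without premalignant replicate 1 (0.051) or premalignant replicate 2 (0.11). The difference was -0.20 in shEzh2.781 lymphomas (adjusted p = 0.462) and -0.84 ± 0.14 (SE) in shEzh2.556 lymphomas (adjusted p = 0.00122). Between hairpins Foxp4 was higher in shEzh2.781 lymphomas by 0.64 ± 0.14 (SE, adjusted p = 0.0149). That call was lost without shEzh2.781 replicate 1 (0.107), shEzh2.556 replicate 1 (0.0834) or shEzh2.556 replicate 2 (0.0674).

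Foxp3 was slightly above background, with 6.63 and 6.62 in shEzh2.781 lymphomas and 6.99 and 6.70 in shEzh2.556 lymphomas, against 6.60 and 6.88 in premalignant cells, and overlapped between groups. On no array was it above the 99th percentile of receptor genes. The 7 regulatory T cell markers had an array mean of 6.44 to 6.52 in shEzh2.781 lymphomas and 6.57 to 6.69 in shEzh2.556 lymphomas, against at least 6.79 in premalignant cells. Of that list Il2ra was lower in lymphomas, with a difference of -2.12, and the others were not called. The median difference of the list was -0.01. Foxp2, known from brain development, was above background on no array.

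Foxo3, Foxo4 and Foxo6 were not called in any of the comparisons. Foxo3, a brake on the cell cycle and an activator of apoptosis genes, had a signal of 8.63 and 8.63 in shEzh2.781 lymphomas and 8.73 and 8.74 in shEzh2.556 lymphomas, against 8.73 and 8.96 in premalignant cells. Foxo4, which acts on overlapping targets, had 7.91 and 7.97 in shEzh2.781 lymphomas and 7.95 and 8.03 in shEzh2.556 lymphomas, against 8.22 and 8.09 in premalignant cells. Foxo6, best known from brain, had 6.93 and 6.89 in shEzh2.781 lymphomas and 7.08 and 6.95 in shEzh2.556 lymphomas, against 6.77 and 6.90 in premalignant cells, and was above the 99th percentile of receptor genes on 1 array. Only the Foxo4 arrays did not overlap between lymphomas and premalignant cells. The intervals of the difference were -0.39 to 0.06 for Foxo3, -0.40 to 0.02 for Foxo4 and -0.09 to 0.35 for Foxo6 (limma adjusted p = 0.342, 0.241 and 0.462).

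Of 32 measured FOXO targets, 2 were higher in lymphomas, where 5.6% of all genes were, 9 were lower, where 9.61% were, and the others were not called. The median difference was -0.17. The recombination gene Rag1 had a signal of 9.57 and 9.17 in shEzh2.781 lymphomas and 8.45 and 8.38 in shEzh2.556 lymphomas, against 10.46 and 10.74 in premalignant cells, a difference of -1.71 ± 0.13 (SE, limma adjusted p = 4.54e-06). Its partner Rag2 differed by -1.22 in shEzh2.781 lymphomas and was below background on both shEzh2.556 arrays. The cyclin G2 gene Ccng2 differed by -1.23 and was called with both hairpins. The death ligand gene Tnfsf10 was also called lower, with both premalignant arrays but only 1 lymphoma array above background. The CDK inhibitor gene Cdkn1b differed by -0.20 in shEzh2.781 lymphomas (adjusted p = 0.338) and by -0.88 in shEzh2.556 lymphomas (adjusted p = 0.000192). Gadd45a, a growth arrest and DNA damage gene, had a signal of 7.60 and 7.59 in shEzh2.781 lymphomas and 11.11 and 10.95 in shEzh2.556 lymphomas, against 8.19 and 8.11 in premalignant cells. It thus fell by 0.56 in shEzh2.781 lymphomas (adjusted p = 0.00764) and rose by 2.88 in shEzh2.556 lymphomas (adjusted p = 2.54e-08), so the mean over both hairpins, 1.16, stands for neither. The other higher target, the redox regulator Txnip, was named after its values were seen. It differed by 0.34 (adjusted p = 0.0296), and its call was lost without shEzh2.781 replicate 1 (0.0677), shEzh2.781 replicate 2 (0.0771), shEzh2.556 replicate 2 (0.0678), premalignant replicate 1 (0.161) or premalignant replicate 2 (0.0811).

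Upstream of FOXO, 28 regulators were measured, of which 1 was higher in lymphomas, where 5.6% of all genes were, and 4 were lower, where 9.61% were, with a median of -0.17. These 4 encode PI3K subunits (Pik3cb, Pik3cd, Pik3cg and Pik3r1). In shEzh2.781 lymphomas Pik3cd and Pik3cg were lower, against 6.24% of all genes. In shEzh2.556 lymphomas 7 were lower, against 11.4%, and these were Pik3cb, Pik3cg, Pik3r1, Pdpk1, Phlpp1, Mapk8 and Sirt1. Pik3cg differed by -1.13 ± 0.10 (SE, limma adjusted p = 1.77e-05) over both hairpins. Pik3cb differed by -0.23 in shEzh2.781 lymphomas (adjusted p = 0.334) and by -0.98 in shEzh2.556 lymphomas (adjusted p = 0.000209), where 1 of its arrays was below background. Pik3r1 differed by -0.38 and Pik3cd by -0.35. The Pik3r1 call was lost without shEzh2.781 replicate 2 (0.0609), shEzh2.556 replicate 1 (0.0752), premalignant replicate 1 (0.0652) or premalignant replicate 2 (0.16). The Pik3cd call was lost when any array but shEzh2.556 replicate 1 was left out: shEzh2.781 replicate 1 (0.0542), shEzh2.781 replicate 2 (0.078), shEzh2.556 replicate 2 (0.0748), premalignant replicate 1 (0.0737) and premalignant replicate 2 (0.166). Sgk3, a kinase that phosphorylates FOXO proteins, was higher by 0.51 (adjusted p = 0.00877, but 0.114 without premalignant replicate 2).

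The broadly expressed FOXK, FOXJ and FOXN genes were not called, with the exception of Foxn3. Foxk1, a regulator of glycolysis and autophagy genes, had a signal of 10.23 and 10.16 in shEzh2.781 lymphomas and 10.42 and 10.55 in shEzh2.556 lymphomas, against 10.32 and 10.45 in premalignant cells. Foxk2, its paralog, had 10.48 and 10.50 in shEzh2.781 lymphomas and 10.56 and 10.54 in shEzh2.556 lymphomas, against 10.50 and 10.51 in premalignant cells. The interval of the difference was -0.26 to 0.17 for Foxk1 and -0.19 to 0.22 for Foxk2. Foxj2 had 8.65 and 8.80 in shEzh2.781 lymphomas and 8.68 and 8.77 in shEzh2.556 lymphomas, against 8.43 and 8.64 in premalignant cells. Its lymphoma arrays did not overlap with the premalignant ones, yet the difference of 0.19 was not called (interval -0.04 to 0.42, limma adjusted p = 0.294). Foxj3 had 10.00 and 10.07 in shEzh2.781 lymphomas and 9.86 and 10.02 in shEzh2.556 lymphomas, against 9.91 and 10.00 in premalignant cells.

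Foxn2 had 9.77 and 9.57 in shEzh2.781 lymphomas and 9.70 and 9.71 in shEzh2.556 lymphomas, against 9.73 and 9.69 in premalignant cells, with an interval of -0.24 to 0.19. Foxn3, which in human cells acts in a cell cycle checkpoint, had 9.77 and 9.70 in shEzh2.781 lymphomas and 9.17 and 9.68 in shEzh2.556 lymphomas, against 9.92 and 10.21 in premalignant cells. All lymphoma arrays were below both premalignant arrays, with shEzh2.556 replicate 1 the lowest. Foxn3 fell by 0.48 (log2, SE 0.14, limma adjusted p = 0.0382), with -0.33 in shEzh2.781 lymphomas (adjusted p = 0.272) and -0.64 in shEzh2.556 lymphomas (adjusted p = 0.0185). When all probe sets were fitted, neither this probe set (adjusted p = 0.153) nor the other Foxn3 probe set, with a difference of -0.24 (adjusted p = 0.181), was called. With quantile normalization (0.0681) or median centring (0.0561) the call was lost too. The Foxn3 call in lymphomas was lost without shEzh2.556 replicate 1 (0.0917), premalignant replicate 1 (0.0628) or premalignant replicate 2 (0.281). That in shEzh2.556 lymphomas was lost without shEzh2.556 replicate 1 (0.176) or premalignant replicate 2 (0.115). Foxn4, a factor of retina and spinal cord interneurons, had 6.74 and 6.63 in shEzh2.781 lymphomas and 6.78 and 6.69 in shEzh2.556 lymphomas, against 6.68 and 6.74 in premalignant cells, near background.

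A further set of genes best known from other tissues was above the receptor background on all arrays but low. Foxe3, a lens factor, had 7.78 and 7.59 in shEzh2.781 lymphomas and 8.09 and 7.82 in shEzh2.556 lymphomas, against 7.62 and 7.89 in premalignant cells. Foxe1, a thyroid factor, had 7.55 and 7.55 in shEzh2.781 lymphomas and 7.72 and 7.57 in shEzh2.556 lymphomas, against 7.51 and 7.67 in premalignant cells. Foxl2, an ovarian granulosa cell factor, had 7.39 and 7.40 in shEzh2.781 lymphomas and 7.97 and 7.31 in shEzh2.556 lymphomas, against 7.13 and 7.47 in premalignant cells. In all of these the groups overlapped. Foxb2 had 7.29 and 7.47 in shEzh2.781 lymphomas and 7.58 and 7.55 in shEzh2.556 lymphomas, against 7.23 and 7.36 in premalignant cells. Foxd2 had 7.27 and 7.14 in shEzh2.781 lymphomas and 7.31 and 7.19 in shEzh2.556 lymphomas, against 7.25 and 7.33 in premalignant cells. Foxi2 had 7.27 and 7.03 in shEzh2.781 lymphomas and 7.40 and 7.46 in shEzh2.556 lymphomas, against 7.17 and 7.45 in premalignant cells. Whether such even signals are transcript or probe background was not tested.

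Foxa2, an endoderm pioneer factor, had 7.05 and 6.98 in shEzh2.781 lymphomas and 7.43 and 6.85 in shEzh2.556 lymphomas, against 6.92 and 7.03 in premalignant cells. Foxd3, a neural crest and stem cell factor, had 6.67 and 6.66 in shEzh2.781 lymphomas and 6.86 and 6.92 in shEzh2.556 lymphomas, against 6.59 and 6.73 in premalignant cells. Foxf1, the paralog of Foxf2 in lung and gut mesenchyme, had 6.50 and 6.61 in shEzh2.781 lymphomas and 6.81 and 6.75 in shEzh2.556 lymphomas, against 6.32 and 6.67 in premalignant cells. The Foxf1 arrays overlapped between groups, unlike those of Foxf2, and its difference of 0.17 had an interval of -0.08 to 0.42. Foxi3, an ectodermal and ear factor, had 6.91 and 6.73 in shEzh2.781 lymphomas and 6.68 and 6.65 in shEzh2.556 lymphomas, against 6.60 and 6.63 in premalignant cells. The lymphoma arrays of Foxi3 were above both premalignant arrays by a small margin, and it was not called (limma adjusted p = 0.453).

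The 3 genes above background on some arrays were Foxi1, Foxl1 and Foxs1. Foxi1, a factor of ion-transporting epithelial cells, had 6.42 and 6.63 in shEzh2.781 lymphomas and 6.51 and 6.57 in shEzh2.556 lymphomas, against 6.79 and 6.95 in premalignant cells. Its arrays did not overlap, and the difference of -0.34 just missed the threshold (limma adjusted p = 0.0511). Foxl1, a factor of gut mesenchyme, had 6.30 and 6.26 in shEzh2.781 lymphomas and 6.74 and 6.32 in shEzh2.556 lymphomas, against 5.96 and 6.23 in premalignant cells. It was not called (adjusted p = 0.15). Foxs1, found in cells of vessel walls, differed between the hairpins.

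The 13 genes above background on no array were Foxa1, Foxa3, Foxb1, Foxc1, Foxc2, Foxd1, Foxd4, Foxh1, Foxj1, Foxn1, Foxp2, Foxr1 and Foxr2. They include the liver factors Foxa1 and Foxa3, the lymphatic vessel factor Foxc2, the kidney stroma factor Foxd1 and the thymic epithelial factor Foxn1. In lymphomas of both hairpins against premalignant cells they ranged between -0.08 and 0.24. Foxj1, the master factor of motile cilia, had 6.11 and 6.04 in shEzh2.781 lymphomas and 6.24 and 6.18 in shEzh2.556 lymphomas, against 6.10 and 6.08 in premalignant cells. Of 24 measured ciliary genes linked to FOXJ1, 1 was higher in lymphomas, where 5.6% of all genes were. In the same list 3 were lower, where 9.61% of all genes were, and the median was 0.09. The higher gene was Ccdc180, with 10.91 and 11.21 in shEzh2.781 lymphomas and 11.38 and 11.36 in shEzh2.556 lymphomas, against 7.99 and 7.09 in premalignant cells. Its difference was 3.68 ± 0.19 (log2, SE, limma adjusted p = 2.91e-07), while Foxj1 stayed below background. The lower genes were the radial spoke genes Rsph1 (-0.85) and Rsph9 and the ciliary regulator Rfx3 (-0.65). Rsph9 differed by -0.09 in shEzh2.781 lymphomas (adjusted p = 0.857) and by -1.91 in shEzh2.556 lymphomas (adjusted p = 4.48e-05), so its mean over both stands for neither.

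In shEzh2.556 lymphomas all 13 of these genes were above their premalignant mean, with a median of 0.19, against 0.07 over all genes. Foxd4 had 5.78 and 5.67 in shEzh2.781 lymphomas and 6.13 and 6.17 in shEzh2.556 lymphomas, against 5.64 and 5.75 in premalignant cells. Foxa3 had 5.52 and 5.41 in shEzh2.781 lymphomas and 5.81 and 5.63 in shEzh2.556 lymphomas, against 5.33 and 5.38 in premalignant cells. In shEzh2.556 lymphomas Foxd4 was higher by 0.46 (limma adjusted p = 0.0145) and Foxa3 by 0.36 (adjusted p = 0.0499), both while below background on every array. The receptor genes moved in the same way, with a median of 0.13 in shEzh2.556 lymphomas against premalignant cells and 43 of 1194 higher. With each array centred on its receptor genes, a setting chosen after seeing the data, Foxd4 was higher by 0.33 (adjusted p = 0.0437) and Foxa3 by 0.24 (adjusted p = 0.161). The Foxa3 call was lost when any 1 of the 6 arrays was left out (0.0546 to 0.273) and with replicate numbers as a block (0.0666). Quantile normalization, median centring, a variance trend with intensity and a fit of all probe sets each lost it too. The Foxd4 call was lost without shEzh2.556 replicate 1 (0.0599), shEzh2.556 replicate 2 (0.0663) or premalignant replicate 1 (0.0875), and with all probe sets fitted.

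Between the hairpins, 1 forkhead gene was higher in shEzh2.781 than in shEzh2.556 lymphomas (Foxp4), where 5.5% of all genes were, and 3 were lower (Foxd4, Foxh1 and Foxs1), where 4.53% of all genes were. In either direction 9.52% of the family and 10.0% of all genes were called. Foxs1 had 6.16 and 6.20 in shEzh2.781 lymphomas and 6.84 and 6.64 in shEzh2.556 lymphomas, with 6.30 and 6.47 in premalignant cells. Foxh1, a partner of SMAD proteins in Nodal signalling, had 5.51 and 5.58 in shEzh2.781 lymphomas and 5.98 and 5.99 in shEzh2.556 lymphomas, with 5.65 and 5.85 in premalignant cells. For Foxs1, Foxh1 and Foxd4 the arrays of the hairpins did not overlap. The difference was -0.56 ± 0.12 (log2, SE) for Foxs1 (limma adjusted p = 0.0156), -0.44 for Foxh1 (0.0351) and -0.43 for Foxd4 (0.0347).

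Signals near background were also lower in shEzh2.781 lymphomas for other genes. All 13 genes below background were lower in shEzh2.781 than in shEzh2.556 lymphomas, with a median of -0.25. Among the 1194 receptor genes 977 were lower, with a median of -0.13 and a range of -0.40 to 0.13 between their 5th and 95th percentiles, and 3.35% were called. Foxs1, Foxh1 and Foxd4 lay below that range, and so, narrowly, did Foxa1 (-0.405 against -0.403), which was not called. The first 3 were picked as called genes, so their place below the range does not set them apart from the shift. With arrays centred on receptor genes the difference was -0.43 for Foxs1 (limma adjusted p = 0.031), -0.31 for Foxh1 (0.0793) and -0.30 for Foxd4 (0.0821). The Foxs1 call was lost without shEzh2.781 replicate 1 (0.0589) or shEzh2.556 replicate 1 (0.123). The Foxh1 call was lost without any 1 of the 4 lymphoma arrays (0.0997 to 0.142), and so was that of Foxd4 (0.0828 to 0.206). With arrays centred in the same way Foxp4, which lies well above background, was higher by 0.77 in shEzh2.781 lymphomas (adjusted p = 0.004). The Foxp4 call between hairpins was lost with quantile normalization and with all probe sets fitted. The neutrophil markers were all 10 higher and the erythroid markers all 6 lower in shEzh2.781 than in shEzh2.556 lymphomas, with medians of 1.91 and -1.22. Of 10 endothelial markers 5 were lower as well (Cdh5, Tie1, Eng, Emcn and Cldn5), with a list mean of 6.89 to 6.97 in shEzh2.781 lymphomas and about 7.43 in shEzh2.556 lymphomas, while Tek and Emcn were above background on no array. Eng, an endothelial receptor gene, differed by -1.54 (limma adjusted p = 5.52e-05). The stromal marker Acta2 differed by -1.37 (adjusted p = 0.000336), and the other stromal markers were not called. The part of these markers in the differences of Foxp4, Foxs1, Foxh1 and Foxd4 was not tested.

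**Figure D5:**
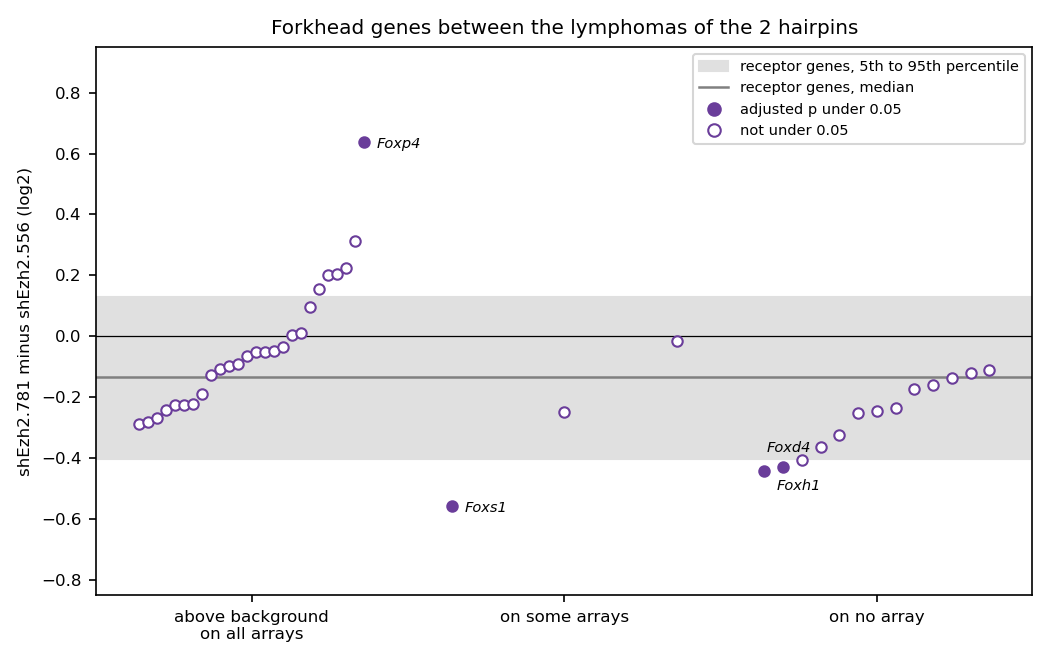
Log2 difference, shEzh2.781 minus shEzh2.556 lymphomas, of each forkhead gene by its class against receptor background, with filled points for called genes and a grey band for the 5th to 95th percentile of receptor genes. The 13 genes above background on no array all lie below 0 (median -0.25), and Foxp4 stands alone at 0.64 among the genes above background on all arrays.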

How the data were processed

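RNA labelled with biotin was hybridised to 1-colour Affymetrix Mouse Gene 1.0 ST arrays, per the labels' protocols. Each probe set has 1 value, deposited by the authors after normalization and read as log2 because the values ran between 2.30 and 14.22. Background correction, normalization and summarization are not given in the sources used here. The medians of the arrays lay between 6.75 and 6.91. Precision is limited by how few arrays there are.

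The platform annotation gave 1 symbol for 21789 of the 35512 probe sets, several for 1621 and none for 12102. Only the first kind was used. For 999 genes with several probe sets, including the forkhead genes Foxf1 and Foxn3, the one with the highest mean was taken. Entrez identifiers of 21698 probe sets matched RefSeq (GRCm38.p6), which gave gene order and promoter windows.

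One limma model (version 3.58.1, R 4.3.3) with a mean for each of the 3 groups and no covariates gave all comparisons, with 8.51 prior and 3 residual degrees of freedom. Genes were called at a Benjamini-Hochberg adjusted p under 0.05, with adjustment over the whole set of 19938 genes. The fit was tested on simulated arrays. Forkhead genes called in a comparison or above background on all arrays were named with every value. Other genes named were up to 6 per list with the smallest p, direct neighbours of called forkhead genes, Ezh2 and Myc. Marker genes and further called list genes were named after their values were seen. Members and lists were chosen with earlier results of these data known. Alternatives changed the normalization, probe set, filter, variance trend, grouping, replicate block and background limit, or left out 1 array. Tables were made with pandas 2.3.3 and numpy 2.4.6 under Python 3.11.15, and figures with matplotlib 3.10.9.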

Additional observations from a re-analysis of the deposited data

Results flagged for a closer look

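The following genes differed between the hairpins by the limma test of that difference (shEzh2.781 minus shEzh2.556, log2). Among forkhead genes these were Foxp4 (0.64), Foxs1 (-0.56), Foxh1 (-0.44) and Foxd4 (-0.43). Among FOXO targets Gadd45a (-3.43) had opposite directions against premalignant cells, while Rag1 (0.96), Rag2 (0.88) and Cdkn1b (0.68) had their lower signals in shEzh2.556 lymphomas, where Rag2 was below background on both arrays. The PI3K gene Pik3cb differed by 0.76. The ciliary genes Rsph9 and Rfx3 differed by 1.81 and 0.43. Rsph9 had 8.60 and 7.86 in shEzh2.781 lymphomas and 6.56 and 6.28 in shEzh2.556 lymphomas, with 8.34 and 8.31 in premalignant cells. Pgm5, the gene next to Foxd4, differed by -0.63 but was above background on no array. Signals near background were lower in shEzh2.781 lymphomas in general, with a median of -0.13 over receptor genes. The marker genes Eng and Acta2 differed by -1.54 and -1.37. The calls of Gadd45a, Rag1, Rag2, Cdkn1b, Pik3cb and Rsph9 between hairpins were kept when each array was left out in turn. That of Rfx3 was lost without shEzh2.781 replicate 1 (adjusted p = 0.114), shEzh2.781 replicate 2 (0.14), shEzh2.556 replicate 1 (0.146) or shEzh2.556 replicate 2 (0.078). That of Pgm5 was lost without shEzh2.781 replicate 2 (0.0569), shEzh2.556 replicate 1 (0.0589) or shEzh2.556 replicate 2 (0.0726).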

How the results depend on the processing

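No result changed direction under the alternatives run. Foxf2 and Foxq1 kept their calls against premalignant cells in all of them, with adjusted p up to 0.000115 and 0.0231 for both hairpins together. Forkhead genes lower in lymphomas numbered 3, but 1 with all probe sets in the fit, 0 with the lymphomas as one group, and 0 to 4 when 1 array was left out. The single lower gene in shEzh2.781 lymphomas, Foxm1, was lost with median centring (0), all probe sets (0), the replicate block (0) and each array left out (0 to 0). Higher in shEzh2.556 lymphomas were 4, but 2 with all probe sets and 2 to 4 with an array left out. Higher in shEzh2.781 than shEzh2.556 lymphomas was 1, but 0 with quantile normalization, 0 with all probe sets and 0 to 1 with an array left out. Lower there were 3, but 1 with quantile normalization, median centring, the filter on dim genes or receptor centring (added after seeing the data), 0 with all probe sets and 0 to 3 with an array left out. Forkhead genes above background numbered 26, but 17 at the 99th percentile or at the median of all genes, and 26 to 27 with an array left out. Over all pathway lists 5 genes were higher, where 5.6% of all genes were, and 38 were lower, where 9.61% were. Of the 38 lower genes, 20 were among the 29 measured FOXM1 targets. When an array was left out, the higher genes numbered 2 to 4 and the lower genes 23 to 38.

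Same-numbered arrays did not deviate together (correlations of 0.064, -0.091 and -0.124), so the numbers were not taken as pairs. With the replicate block Foxm1 in shEzh2.781 lymphomas had an adjusted p of 0.0748, Foxa3 in shEzh2.556 lymphomas 0.0666 and Foxd4 between hairpins 0.0509. Signals near background limit what can be seen for most tissue-restricted forkhead genes.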

Other observations

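Genes next to the other called forkhead genes were mostly not called. Irf2bp1, which encodes an interferon regulatory factor 2 binding protein and lies beside Foxa3, differed in lymphomas by -0.45 ± 0.10 (log2, SE, limma adjusted p = 0.00718, but 0.0623 without premalignant replicate 2). Rhno1, a DNA damage response gene beside Foxm1, differed by -0.29 over both hairpins (adjusted p = 0.0895) and by -0.38 in shEzh2.556 lymphomas (adjusted p = 0.0478).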
